A study of Homo sapiens with 15 samples.

Results

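RNA that co-purified with CLIP-tagged UPF1 isoform 1 (UPF1-1) was compared with total RNA of the same cells, gene by gene. The comparison rests on 6 of the 15 libraries of the series, 3 of affinity-purified RNA (UPF1-1 IP) and 3 of total RNA (UPF1-1 total RNA), which were chosen by their column labels and paired by replicate number. All cells were HEK-293 Trex, an established human embryonic kidney line in which a transgene is switched on by doxycycline, and all received 200 ng/mL of it. One line expressed CLIP-tagged UPF1-1. A second expressed CLIP-tagged UPF1 isoform 2 (UPF1-2), with 3 IP and 3 total RNA libraries that serve here to estimate the spread and as a comparison, and the third expressed GFP, with 3 total RNA libraries and no purification. The ratios therefore measure recovery relative to total RNA and not relative to RNA bound by a control protein. The tagged protein comes from an added copy of UPF1 under an inducible promoter, and the labels name no removal of the cells' own UPF1. Libraries were made after depletion of ribosomal RNA. In UPF1-1 total RNA, 7 of 9 markers of this kidney line were in the table, such as VIM with 147, 140 and 184 TPM (a level that is divided by transcript length and scaled to the library's total). Of 11 markers of blood, liver, fibroblast and endothelial cells 1 was in it, HBA1 with 3.20, 1.85 and 5.31 TPM.

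UPF1 is an RNA helicase that moves along RNA and is central to nonsense-mediated decay (NMD), the pathway that degrades mRNAs whose translation ends far upstream of the usual place. It binds RNA with little preference for sequence, is displaced from coding regions by translating ribosomes, and therefore collects on untranslated stretches. UPF2 and UPF3B activate it, SMG1 phosphorylates it, and SMG5 and SMG6 bind the phosphorylated form and start the decay. The human isoforms differ in a regulatory loop of the helicase domain, which is longer in UPF1-1.

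Of the 12261 genes in the table, each represented by 1 Ensembl transcript, 11969 had at least 1 TPM in at least 3 of the 12 UPF1 libraries and were tested. Purified libraries held more of their TPM in the listed genes, 46.5%, 46.1% and 69.9% in UPF1-1 IP against 14.9%, 14.6% and 17.8% in total RNA. The TPM of most genes was higher in the IP as well, and the part of that share in it was not tested. In the authors' deposited table the median ratio of IP to total TPM was 6.58, 6.34 and 7.98 in replicates 1, 2 and 3. The ratios below are on the log2(TPM + 0.5) scale after the median gene was set to the same level in every library, so "higher" and "lower" are relative to the library medians. Without that step the median log2 ratio moved from -0.16 to 2.40, and many of the genes called lower would be above 0. Adding 0.5 to each value pulls the ratio of low genes toward 0 before centring. Because the median gene rose, such genes then tend to fall below it. At low TPM this favours calls of lower and understates higher ratios.

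By limma with Benjamini-Hochberg adjustment and a threshold of 0.05, 3691 genes (30.8% of those tested) were higher and 5251 (43.9%) lower in UPF1-1 IP than in UPF1-1 total RNA. At least 2-fold changes were counted for 703 higher genes (5.87%) and 2384 lower genes (19.9%). The spread was therefore wider below than above, from -6.60 to 2.33, with quartiles of -0.81 and 0.40. All 3 replicate ratios were above 0 for 4164 genes and below 0 for 5829. The IP and total RNA libraries did not overlap for 2612 genes with a higher and 4231 with a lower IP. Replicate ratios correlated across genes at r = 0.96 for replicates 1 and 2, 0.92 for 1 and 3 and 0.90 for 2 and 3, over 11969 genes that are not independent. Replicate 3 stood apart. Without it 3781 genes were higher and 5095 lower. Without a term for the replicate pair 2368 were higher and 3832 lower, and without the step that sets medians equal 11464 were higher and 150 lower.

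The start of the mRNA is shown for ribosomal protein genes, the protein-coding family with the lowest recovery, and for genes among the highest ratios. Many mRNAs of the translation machinery begin with a C followed by an unbroken run of pyrimidines, the 5′ terminal oligopyrimidine motif, through which LARP1 and mTOR signalling set their translation. Each run below holds 10 bases before and 20 bases from an annotated RefSeq start in GRCh38.p14, and the capitals mark the first 5 bases from that start.
RPS16, chr19:39435930-39435959, minus strand: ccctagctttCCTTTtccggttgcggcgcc
RPS21, chr20:62387093-62387122, plus strand: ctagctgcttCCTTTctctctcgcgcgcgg
RPLP1, chr15:69452808-69452837, plus strand: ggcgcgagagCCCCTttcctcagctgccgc
RPL28, chr19:55385922-55385951, plus strand: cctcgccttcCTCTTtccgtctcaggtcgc
TSNAX, chr1:231528659-231528688, plus strand: gaggagacttCCGGCcactgcgttgtagtc
VPS35, chr16:46689159-46689188, minus strand: gcgggaggctACGCGcggggcgggtgctgc
NUP155, chr5:37371087-37371116, minus strand: agtgcgtcatGTCGAggcgccaaggcgctc
UPF1, chr19:18831949-18831978, plus strand: cggtggcggcAGTTCctgctctaggctgcg
In the ribosomal protein genes shown the 5 bases are a C and 4 pyrimidines, and in the 4 others they are not. A C and 4 further C or T were searched at any annotated start, in the sense of the RNA alone. They stood in 45 of 60 matched cytosolic ribosomal protein genes (75%), in 656 of 9058 other matched genes (7.24%), and at 4.07% of all 35116 RefSeq starts of that table. Among the other genes the median log2 ratio was -0.18 with the motif and -0.11 without it. Among the ribosomal protein genes it was -2.56 with and -2.31 without it. The search was chosen after the data were seen, an annotated start need not be the one used in these cells, and a match is a description only.

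All 75 cytosolic ribosomal protein mRNAs, which encode the subunits of the translating ribosome, were lower in UPF1-1 IP, where 43.9% of all tested genes were. Their median log2 ratio was -2.53, against -0.16 for all tested genes, and 74 were at least 2-fold lower. Without centring the list's median was 0.03.
RPS16 (ENSG00000105193), a protein of the small subunit, had 139, 106 and 167 TPM in the IP and 349, 329 and 586 TPM in total RNA. All its IP values were below all its total RNA values even before the medians were set equal. Its log2 ratio was -4.15 ± 0.15 (SE), with a limma adjusted p of 1.4e-07. RPS21 had 217, 221 and 304 TPM in the IP against 466, 472 and 571 in total RNA, and a log2 ratio of -3.60 ± 0.08. RPS29 followed the same pattern with 365, 394 and 287 against 885, 833 and 607 TPM and a log2 ratio of -3.70. RPL28, of the large subunit, was among the lowest at -3.81. The least reduced member was RPL22, a large subunit protein that also binds RNA outside the ribosome. It had 191, 187 and 405 TPM in the IP and 68.9, 68.1 and 76.3 in total RNA, which was a log2 ratio of -0.79. RPL13A, at -1.36, was still among the 10 RNAs with the highest IP level, with 1531, 1650 and 1834 TPM. Ribosomal protein genes have many processed pseudogenes, so the assignment of reads to single members is uncertain.

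**Figure D1:**
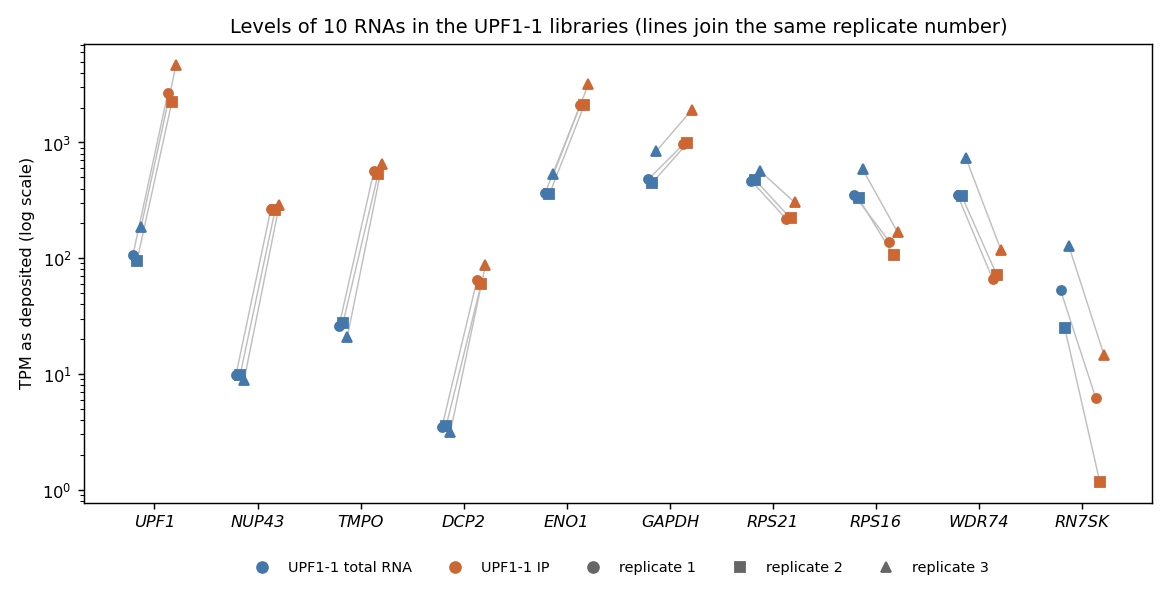
TPM as deposited, on a log axis, of 10 RNAs in the 3 UPF1-1 total RNA libraries (blue) and the 3 UPF1-1 IP libraries (orange), with grey lines joining the same replicate number and symbols for the numbers. UPF1, NUP43, TMPO and DCP2 rise most steeply, ENO1 rises about as much as the median gene (log2 ratio -0.00), GAPDH less, and RPS21, RPS16, WDR74 and RN7SK are lower in the IP even as TPM.

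Other lists of short, abundant mRNAs were low as well, read against 43.9% lower and 30.8% higher among all tested genes. Oxidative phosphorylation subunits, which form the respiratory chain and the ATP synthase, were lower for 66 and higher for 3 of 77 genes, with a median of -2.00. COX7A2, of cytochrome c oxidase, had 42.5, 40.7 and 40.7 TPM in the IP and 72.9, 65.3 and 57.0 TPM in total RNA, a log2 ratio of -3.20 ± 0.08 with a limma adjusted p of 7.2e-08. The members called higher were SDHD (0.85), NDUFS1 (1.01) and ATP5SL (1.03), and ATP5SL was taken in by its symbol and is not a subunit of the enzyme. The lower ones include the pseudogene UQCRFS1P1 (-1.75), taken in the same way. Replication-dependent histones, whose mRNAs end in a stem-loop in place of a poly(A) tail and which are degraded in a UPF1-dependent way when replication stops, were lower for all 52 tested members of 58 in the table. They had a median of -2.32 and a narrow range, from -2.84 for HIST1H2AK to -1.38 for HIST1H3E. These genes have near-identical copies, so single values are uncertain. Mitochondrial ribosomal proteins, encoded in the nucleus like the respiratory subunits, were lower for 53 and higher for 10 of 74, with a median of -0.91. Their extremes were MRPL41 at -2.83, with 17.2, 17.6 and 22.7 TPM in the IP against 21.1, 19.9 and 28.8, and MRPL30 at 1.51, with 57.4, 56.7 and 70.2 TPM against 3.32, 2.97 and 3.23.

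The next counts are likewise read against 43.9% lower and 30.8% higher among all tested genes. Sm and LSm proteins, which form rings on spliceosomal RNAs and decapping targets, were lower for 15 and higher for 0 of 18, with a median of -1.48. That list also took in, by symbol, SNRPA, SNRPC, SNRPA1 and SNRPB2, which are proteins of the U1 and U2 particles outside the rings and were called lower. The 3 others were LSM4 (-0.03), SNRPD1 (-0.11) and LSM5 (-0.12). SNRPD3 was the lowest at -4.21 ± 0.27, with 5.18, 4.81 and 14.2 TPM in the IP against 21.8, 20.5 and 29.0 TPM. Proteasome subunits were lower for 30 and higher for 2 of 34, with a median of -0.96. The higher pair was PSMD12 of the regulatory lid, at 1.30, and PSMB2 of the core, at 0.82, while PSMB10, a core subunit of the immunoproteasome, was lowest at -2.13. Actins, tubulins and actin regulators split into 19 lower and 7 higher of 26, with a median of -0.96, from profilin PFN1 at -2.69 to cofilin CFL2 at 0.72. PFN1 had 164, 176 and 335 TPM in the IP against 190, 192 and 349 in total RNA, so its TPM hardly moved where that of the median gene rose. CFL2 was not called without a term for the replicate pair (adjusted p = 0.11). ACTG1, cytoplasmic gamma actin, was among the RNAs with the highest IP level, with 1713, 1612 and 4173 TPM, and its log2 ratio of 0.39 was called with the pair term but not without it (adjusted p = 0.20) or without replicate 1 (limma adjusted p = 0.067).

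**Figure D2:**
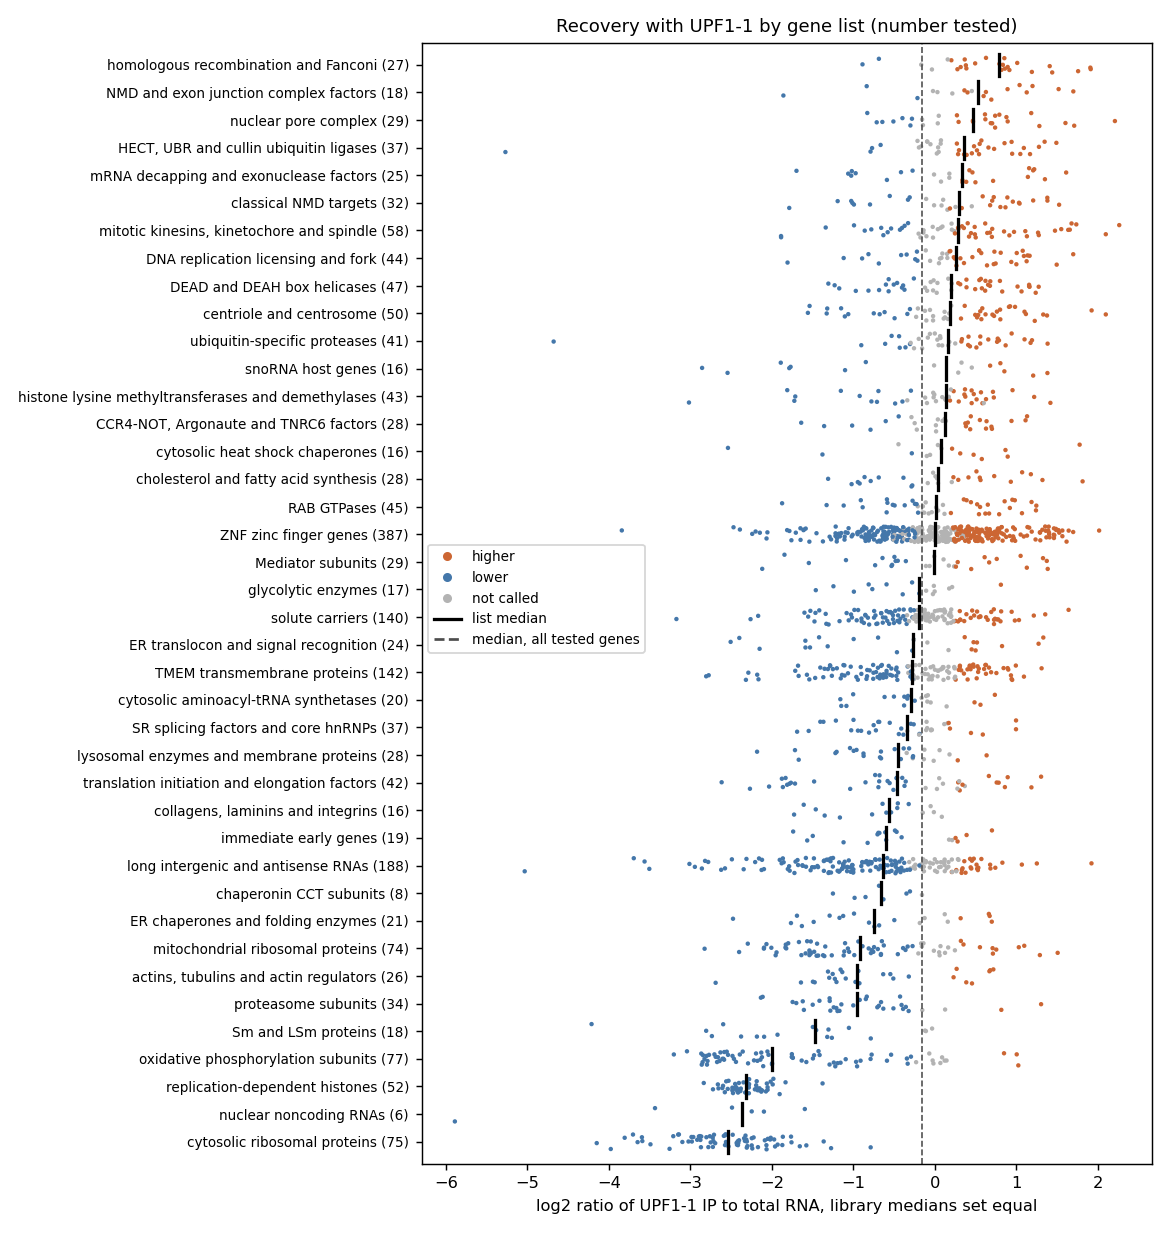
Log2 ratio of UPF1-1 IP to total RNA, with equal library medians, 1 point per gene in 40 gene lists with at least 5 tested members, ordered by list median (black bar), with the number tested in brackets; orange marks genes called higher, blue lower, grey not called, and the dashed line is the median of all tested genes. The 5 lists with medians below -1 lie at the bottom, and 17 lists have medians above 0.

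RNAs of the nucleus were also low, where 43.9% of all tested genes were lower and 30.8% higher. The 6 nuclear noncoding RNAs in the list were lower in UPF1-1 IP, with a median of -2.37, and 0 of them were higher. RN7SK, the RNA that holds the elongation factor P-TEFb inactive, had the lowest ratio of the named called genes with at least 5 TPM in both groups. It had 6.24, 1.17 and 14.7 TPM in the IP and 52.7, 25 and 128 TPM in total RNA, a log2 ratio of -5.89 ± 0.24 with a limma adjusted p of 2.2e-07. Every IP value was below every total RNA value. MALAT1 (-2.49) and NEAT1 (-2.25), long RNAs of nuclear speckles and paraspeckles, were low despite lengths of 2.66 and 8.89 times that of the median gene, on the length estimate described below. RNU12, of the minor spliceosome, was at -3.43 and SCARNA2, of Cajal bodies, at -2.10. RMRP, the RNA of RNase MRP, was the least reduced at -1.60. SNORD3A, the U3 small nucleolar RNA that acts in ribosomal RNA processing, had 9.69, 12.3 and 10.4 TPM in the IP against 27.9, 30.4 and 73.9 TPM, a log2 ratio of -4.40. By RefSeq biotype, 350 of 497 long noncoding RNAs were lower and 55 higher, with a median of -0.80, against -0.10 for 10362 protein-coding genes. The median relative length of those noncoding RNAs was 0.36 of the median gene, and after the median of their own length class was subtracted their median was 0.01. The highest of the long intergenic and antisense RNAs was CEBPZ-AS1 at 1.92, with 59.2, 57.5 and 70.3 TPM in the IP against 2.45, 2.57 and 1.91.

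Several of the lowest ratios rest on few or uneven values. WDR74, a ribosome assembly factor, was low in every pair, with 66.3, 71.9 and 119 TPM against 351, 346 and 740 TPM and a log2 ratio of -4.99 ± 0.18. SRP9P1, a pseudogene of the signal recognition particle protein SRP9, was listed at 0 in replicates 1 and 2 of the IP and at 115 TPM in replicate 3, against 37.9, 19.9 and 35.4 TPM in total RNA. Its replicate ratios of -8.71, -7.74 and -1.16 span far more than the median spread between replicates of 0.17 (SD), and it has a parent gene of like sequence. KRTCAP2, a subunit of the oligosaccharyltransferase complex, was uneven too, with ratios of -3.89, -2.62 and -7.73. Of all tested genes 79 had a replicate SD above 1.

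The highest ratio among named genes with at least 5 TPM in both groups belonged to NUP43 (ENSG00000120253), a scaffold protein of the nuclear pore. It had 267, 260 and 286 TPM in UPF1-1 IP and 9.73, 9.70 and 8.88 TPM in total RNA. Its log2 ratio was 2.21 ± 0.09 with a limma adjusted p of 2.0e-07, and the groups were far apart. UPF1 itself followed at 2.06 ± 0.09, with 2660, 2255 and 4689 TPM in the IP and 106, 94.5 and 186 TPM in total RNA. This mRNA comes from the transgene and the cells' own gene together, which the table does not separate, and it checks the construct rather than the binding of an endogenous RNA. TMPO, which encodes lamina-associated polypeptide 2, had 572, 535 and 653 TPM against 25.9, 27.8 and 20.7 and a log2 ratio of 1.98. TSNAX, a partner of the nuclease translin, had 249, 245 and 241 TPM against 14, 13.5 and 6.84 and a log2 ratio of 1.86. In both genes the IP libraries agreed closely, and all lay above total RNA.

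The other members of that top 12 were the vesicle coat and sorting proteins AP1S2 (1.81) and VPS35 (1.75), the tubulin regulator STMN3 (1.75), the kinetochore protein SPC24 (1.74), C1orf198 (1.73), the Hippo pathway adaptor MOB1A (1.73), the pore protein NUP155 (1.71) and POLA1 (1.70), the catalytic subunit of DNA polymerase alpha. NUP155 rose from 16.0, 16.5 and 17.9 TPM to 297, 276 and 450 TPM. Their limma adjusted p lay between 4.2e-07 for NUP155 and 8.2e-06 for POLA1. Of the 29 nuclear pore genes tested 18 were higher and 7 lower, with a median of 0.47, beside 30.8% higher among all tested genes. The lowest pore gene was POM121C at -0.83, at 3.08, 3.07 and 6.45 TPM in the IP against 0.72, 0.58 and 1.33 TPM.

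Homologous recombination and Fanconi genes, which mend double-strand breaks and crosslinks, had the highest median of the 40 lists, 0.79, with 22 higher and 2 lower of 27, where 30.8% of all tested genes were higher and 43.9% lower. BRIP1, the helicase partner of BRCA1, had 49.1, 43.3 and 47.2 TPM in the IP against 1.91, 2.00 and 1.06 in total RNA, a log2 ratio of 1.91 ± 0.10 with a limma adjusted p of 6.9e-07. BRCA2, which acts in repair by strand exchange, was at 1.76, with 18.8, 15.7 and 21.0 TPM against 0.457, 0.435 and 0.441, and BRCA1 was at 1.19. ATM, the kinase that signals breaks, had a smaller ratio of 0.38, which was not called without a term for the replicate pair (adjusted p = 0.077) or without replicate 1 (limma adjusted p = 0.076). FANCG (-0.89) and RAD51C (-0.69) were the 2 that were lower. BRCA1, BRCA2 and ATM, and members of lists other than the highest and lowest, were chosen to be named after their values were seen.

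Mitotic kinesins, kinetochore and spindle genes were higher for 31 and lower for 14 of 58, with a median of 0.29, beside the 30.8% higher and 43.9% lower of all tested genes. KIF14, a kinesin of cytokinesis, had 38.7, 34.0 and 59.0 TPM in the IP and 1.07, 1.05 and 0.95 TPM in total RNA, a log2 ratio of 2.26. CENPV, a small centromere protein, was the lowest at -1.89. Centriole and centrosome genes were split in the same way, 24 higher and 13 lower of 50, with a median of 0.19, from TUBG1, gamma-tubulin, at -1.56 to CENPJ, which sets centriole length, at 2.10. Replication licensing and fork genes were higher for 26 and lower for 10 of 44, with a median of 0.26, from the small subunit RPA3 at -1.81 to POLA1 at 1.70. HECT, UBR and cullin ubiquitin ligases were higher for 22 and lower for 4 of 37, with a median of 0.36. ITCH led them at 1.49, and HERC1 was lowest at -5.27, with 1.09, 1.14 and 0.40 TPM in the IP against 7.85, 8.15 and 8.53. HERC1 encodes one of the largest ubiquitin ligases, but the transcript in the table had 0.26 of the median length, so it stands for a short form. The same held for USP54 (-4.68, relative length 0.096) and for the demethylase KDM5B (-3.02, relative length 0.033).

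The ratio moved with transcript length. A relative effective length was derived for 11948 tested genes from the authors' deposited mean natural log of estimated counts and the TPM of the 6 GFP and UPF1-2 total RNA libraries, so no UPF1-1 library entered it, and the median tested gene was set to 1.00. The genes were put in 10 classes of equal size by length. In the shortest class the median log2 ratio was -1.44, and 78.1% were lower. It rose to -0.95, -0.53, -0.33 and -0.12 in the classes that followed, crossed 0 near the median length, and was 0.22 in the class before the longest and 0.18 in the longest, where 22.8% were lower. Among the 3151 genes with a mean of at least 5 TPM in GFP total RNA the range was wider, from -2.19 to 0.49. Spearman's rho across genes was 0.47 over all 11948 genes and 0.63 over those 3151, as a description, since genes share the libraries and are not independent. In single replicates rho was 0.46, 0.41 and 0.51 over all genes. The length estimate and the 5 TPM subset were chosen after the data were seen. Without ribosomal, histone and respiratory chain genes rho in the subset was 0.59 over 2887 genes.

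**Figure D3:**
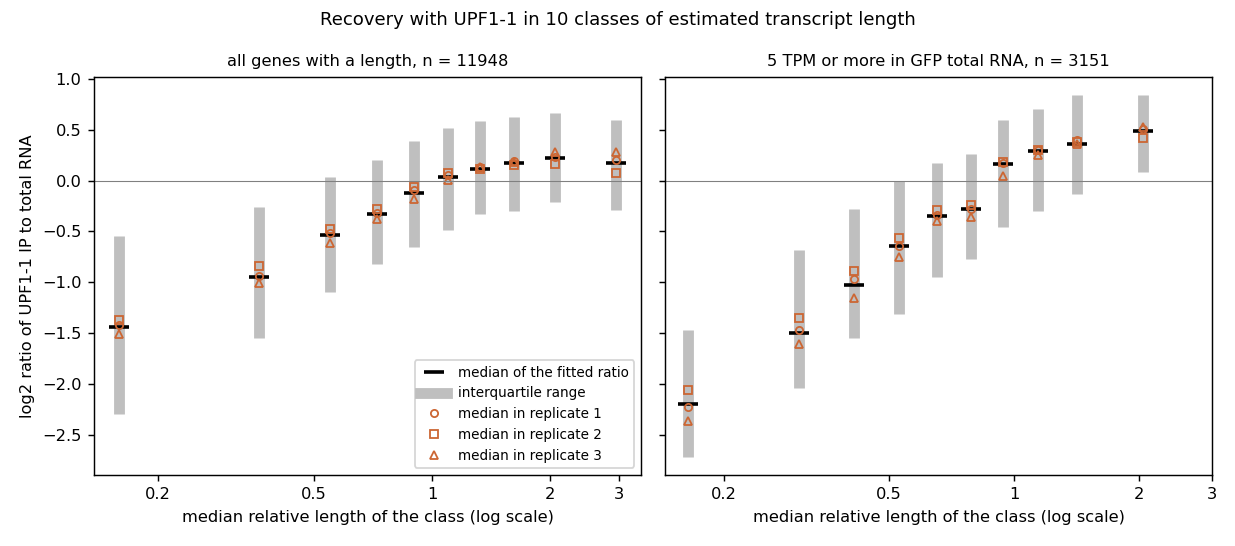
Log2 ratio of UPF1-1 IP to total RNA against the median relative length of each of 10 length classes (log axis, median gene 1), for all 11948 genes with a length (left) and for 3151 genes with at least 5 TPM in GFP total RNA (right); black bars are medians, grey bars the quartiles, and open symbols the medians in each replicate. The medians rise from -1.44 to 0.18 on the left and from -2.19 to 0.49 on the right, and the replicates lie close together.

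Length moved with several of the lists above. The median relative length was 0.29 for cytosolic ribosomal proteins, 0.35 for respiratory subunits, 0.14 for histones, 0.40 for mitochondrial ribosomal proteins and 0.47 for proteasome subunits, and it was 1.36 for homologous recombination genes and 1.51 for nuclear pore genes. With the median of each gene's own length class subtracted, the list medians were -1.48 for cytosolic ribosomal proteins, -1.0 for respiratory subunits, -1.04 for histones, -0.32 for proteasome subunits and -0.09 for mitochondrial ribosomal proteins. They were 0.72 for homologous recombination genes and 0.48 for nuclear pore genes. Mitochondrial ribosomal proteins thus had a median close to that of other genes of their length. Long mRNAs were not all high. HUWE1, a giant ubiquitin ligase at 6.22 times the median length, had 8.88, 6.89 and 28.4 TPM against 2.37, 1.90 and 5.14, a log2 ratio of -0.67, and the dynein heavy chain DYNC1H1, at 5.58 times, had -0.26. Both were chosen after their values were seen, and neither was called without a term for the replicate pair (adjusted p = 0.16 and 0.41). DYNC1H1 was also not called without replicate 1 or 2 (limma adjusted p = 0.095 and 0.12).

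The level in GFP total RNA moved with the ratio too. The 2741 genes at 2 to 5 TPM there had a median log2 ratio of 0.13, and the 212 genes at 100 TPM or more had -2.24. The ratio was low at the lowest levels as well, where the added 0.5 weighs most. The 1279 genes below 0.5 TPM had a median of -0.58, with 64.1% lower and 6.41% higher. For the 2316 genes at 0.5 to 1 TPM the median was -0.22. Those 212 genes had a median relative length of 0.30. Over the 3151 genes rho of the ratio with the level was -0.36, and over all 11948 it was 0.05. Whether length, level or another property that goes with them sets the ratio was not tested. Of the 10 RNAs with the highest IP level, HFM1 (14492 ± 10494 TPM, SD, n = 3), SLCO5A1 and DLG2 were represented by very short transcripts, at 0.11, 0.054 and 0.059 of the median length. Their values differed widely between replicates. HFM1 had 18378, 22489 and 2609 TPM in the IP and 2339, 4377 and 401 in total RNA, and its log2 ratio of 0.12 was not called (limma adjusted p = 0.89). ENO1, the glycolytic enolase, was steadier, with 2095, 2115 and 3199 TPM against 367, 355 and 529 and a log2 ratio of -0.00, the level of the library median.

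UPF1's partners were next compared. Of 18 NMD and exon junction complex factors 11 were higher and 3 lower, with a median of 0.53. Among all tested genes 30.8% were higher and 43.9% lower. UPF2, the activator of UPF1, had 27.2, 23.6 and 60.4 TPM in the IP and 1.23, 1.21 and 1.45 TPM in total RNA, a log2 ratio of 1.70 ± 0.17 with a limma adjusted p of 3.5e-05. All of its IP values lay above all of its total RNA values. The endonuclease SMG6 was at 1.52, SMG9, a regulator of the kinase SMG1, at 1.20, SMG1 itself at 1.13 and SMG5 at 1.04. UPF3B at 0.45 and UPF3A at -0.02 were not called. The 3 lower members were core proteins of the exon junction complex, MAGOH (-1.86), EIF4A3 (-0.84) and MAGOHB (-0.21). Not all of that core was lower, since CASC3 was higher at 0.69 and RBM8A was not called at 0.22. MAGOH had 14.3, 12.2 and 31.2 TPM in the IP against 8.58, 9.32 and 15, and its transcript had 0.16 of the median length.

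Among 25 decapping and exonuclease factors 13 were higher and 8 lower, beside 30.8% and 43.9% of all tested genes, with a median of 0.34, which was 0.21 without replicate 1. DCP2, the enzyme that removes the cap, had 65.3, 60.0 and 86.6 TPM in the IP and 3.5, 3.57 and 3.13 TPM in total RNA, a log2 ratio of 1.61 ± 0.08 with a limma adjusted p of 4.9e-07. The 5′ to 3′ exonuclease XRN1 was at 1.35, TTC37 of the Ski complex at 1.22 and the helicase DDX6 at 1.16. Of the 8 lower members 6 were exosome subunits, from EXOSC4 at -1.70 and EXOSC1 at -1.06 to EXOSC8 at -0.41. The exosome was not low throughout, since EXOSC2 at 1.21, DIS3 at 1.14 and EXOSC6 at 0.50 were higher. EXOSC9 (0.18) and EXOSC10 (0.08) were not called. CCR4-NOT, Argonaute and TNRC6 factors, which shorten poly(A) tails and carry out silencing by microRNAs, were higher for 13 and lower for 6 of 28, read against the same shares, with a median of 0.13, which was 0.27 without replicate 2. DICER1 was the highest at 1.13, and CNOT3 the lowest at -1.64, which was not called without a term for the replicate pair (adjusted p = 0.065).

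Classical NMD targets, RNAs that other studies found to rise when UPF1 or SMG factors are lost, were higher for 16 and lower for 9 of 32, beside 30.8% and 43.9% of all tested genes. Their median was 0.29, against -0.16 for all. Their median relative length was 0.77, and with the median of each gene's own length class subtracted the list median was 0.74. NAT9, an acetyltransferase homologue, was highest, with 74.2, 77.3 and 102 TPM in the IP against 4.05, 4.49 and 4.84 TPM and a log2 ratio of 1.53 ± 0.08 (limma adjusted p = 7.8e-07). ARFRP1 (1.38), SMG5 (1.04) and RASSF1 (1.03) were higher too. Of the stress-response targets, ATF3 was at 0.96, SESN2 at 0.87, DDIT3 at 0.72 and GADD45A at 0.59, while ATF4 at 0.08 and ASNS at 0.10 were not called and PPP1R15A, which reverses the block on translation in stress, was at -0.80. Without a term for the replicate pair DDIT3 (adjusted p = 0.10), GADD45A (0.053) and PPP1R15A (0.14) were not called. Without replicate 3 GADD45A was at 0.36. BAG1 (-1.19), TRA2A (-1.03), UPP1 (-1.01) and MAP3K14 (-0.99) were lower. MAP3K14 had 0.24, 0.19 and 0.47 TPM in total RNA, all below the added 0.5, and 1.36, 1.35 and 3.30 TPM in the IP. BAG1 had 9.11, 9.06 and 10.6 TPM in the IP against 3.45, 3.18 and 3.60, and its 3 ratios were all below 0.

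Of the splicing factors in the list of NMD targets, which are known for an alternative exon with an early stop, TRA2A was low, as given above, SRSF3 (0.15) and SRSF2 (-0.11) were not called, and SRSF6 (0.19) was called with the pair term but not without it (adjusted p = 0.21), nor without replicate 1, 2 or 3 (limma adjusted p = 0.14, 0.16 and 0.084). The table holds 1 transcript per gene, and whether it is the form with the early stop was not determined. HNRNPL (-0.55), CARS (-0.33) and UAP1 (-0.31) were lower with the pair term and not called without it (adjusted p = 0.20, 0.18 and 0.15). CARS was not called without replicate 1 (limma adjusted p = 0.092), and UAP1 not without replicate 1 or 2 (0.080 and 0.089). The snoRNA host RNAs differed among themselves. SNHG15 (1.38), SNHG1 (1.21), SNHG12 (0.81) and EPB41L4A-AS1 (0.68) were higher, GAS5 (0.45) and ZFAS1 (-0.01) were not called with all replicates but were higher without replicate 3, at 0.72 and 0.26 (limma adjusted p = 0.00067 and 0.036), and SNHG5 was at -1.79. SNHG15 had 473, 495 and 400 TPM in the IP against 31.6, 28.4 and 27.3, and SNHG5 had 247, 230 and 220 against 141, 135 and 131. The transcripts of both are short, at 0.39 and 0.11 of the median length. Relative to its own length class SNHG15 was at 2.33 and SNHG5 at -0.35. Over all 16 snoRNA host genes tested, 5 were higher and 7 lower, shares close to the 30.8% and 43.9% of all tested genes. Their median of 0.14 was 0.05, -0.08 and 0.35 without replicate 1, 2 and 3, and SNHG17 was lowest at -2.86.

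**Figure D4:**
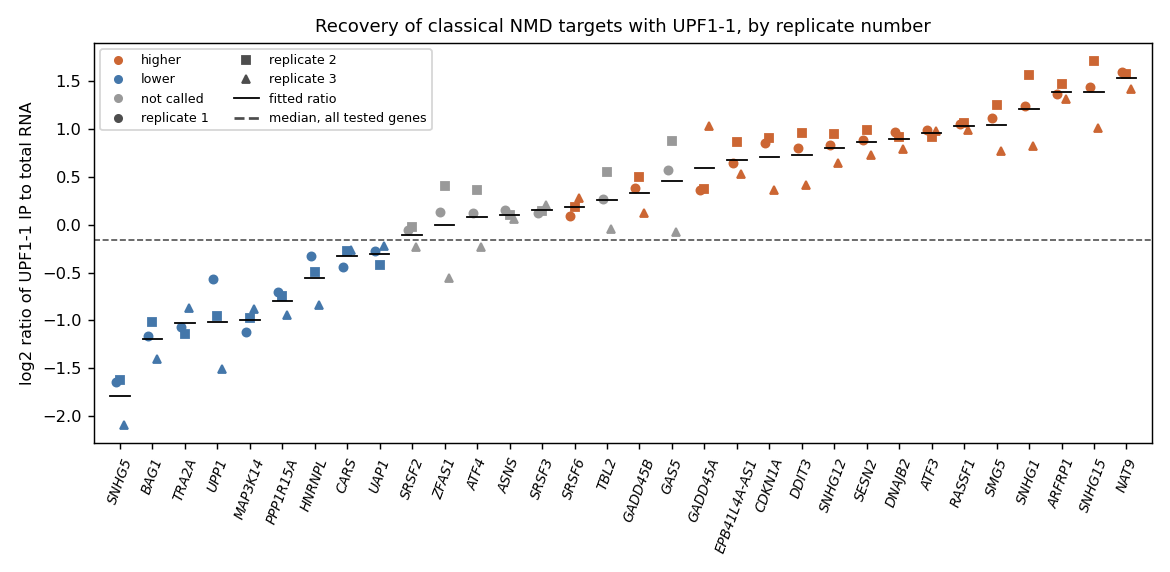
Log2 ratio of UPF1-1 IP to total RNA, with equal library medians, for the 32 classical NMD targets ordered by the fitted ratio (black line), with 1 symbol per replicate number and color for the call; the dashed line is the median of all tested genes. They run from SNHG5 at -1.79 to NAT9 at 1.53, with 16 called higher and 9 lower, and ZFAS1 and GAS5 have their replicate 3 below replicates 1 and 2.

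The counts of the translation, RNA-binding and chaperone lists are read against 43.9% lower and 30.8% higher among all tested genes. Initiation and elongation factors were lower for 25 and higher for 10 of 42, with a median of -0.47. EEF1B2, the exchange factor of elongation, was lowest at -2.62 ± 0.07, with 125, 115 and 179 TPM in the IP against 135, 133 and 162, and EIF1AX, which scans for the start codon, was highest at 1.30, with 247, 227 and 267 TPM against 18.1, 18.5 and 13.2. Cytosolic aminoacyl-tRNA synthetases were lower for 11 and higher for 3 of 20, from FARSA at -1.16 to NARS at 0.74. DEAD and DEAH box helicases were higher for 22 and lower for 15 of 47, with a median of 0.20 (0.095 without replicate 3), from DDX41 at -1.31 to DHX9, a nuclear helicase that unwinds double-stranded RNA, at 1.28. SR proteins and core hnRNPs were lower for 21 and higher for 6 of 37, from SRSF9 at -1.69 to SRSF1 at 1.00. The lower ones include the pseudogenes HNRNPA1P7 (-1.41) and HNRNPA1P48 (-1.37), which were taken in by symbol. All 8 chaperonin subunits had ratios below 0, and 7 were called lower, with CCT7 at -1.25. The other, CCT6A, was at -0.16, and without replicate 3 it was called lower at -0.35 (limma adjusted p = 0.0023). Cytosolic heat shock chaperones were higher for 7 and lower for 3 of 16, with BAG3, a co-chaperone of HSP70, at 1.78 and the small heat shock protein HSPB1 at -2.54.

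Counts of the membrane and secretory lists are read against 43.9% lower and 30.8% higher among all tested genes. ER chaperones and folding enzymes were lower for 13 and higher for 4 of 21, with a median of -0.74, and their median relative length was 1.12. SDF2L1 was lowest at -2.48 and DNAJC3, which inhibits the kinase PERK, highest at 0.70. Lysosomal genes were lower for 19 and higher for 2 of 28, with a median of -0.45 and a median relative length of 1.09. The list held 0.031% of the listed TPM in total RNA. The part of the added 0.5 in its low ratios was not tested. NPC2, which carries cholesterol out of lysosomes, was lowest at -2.18 and SCARB2 highest at 0.64. Collagens, laminins and integrins were lower for 12 and higher for 0 of 16, with a median of -0.57. ITGAV, their highest at 0.09, had 6.13, 5.94 and 6.44 TPM in the IP. In total RNA it had 0.61, 0.56 and 0.53 TPM, close to the added 0.5, whose part was not tested here either. The lowest of that list, ITGB1BP1 at -1.73, binds integrins and was taken in by its symbol. Translocon and signal recognition genes were lower for 13 and higher for 8 of 24, from SEC61G at -2.51 to SSR3 at 1.33. The larger families were close to the 43.9% lower of all tested genes, but fewer of their members were higher than the 30.8% of all. Their medians were somewhat below the -0.16 of all tested genes. Solute carriers were lower for 61 and higher for 32 of 140, with a median of -0.19 (-0.12 without replicate 3) and ends at SLC47A1 (-3.17) and SLC25A10 (1.64), and TMEM genes lower for 68 and higher for 34 of 142, with a median of -0.27, from TMEM256 (-2.81) to TMEM129 (1.31).

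For the lists that follow, the shares among all tested genes were again 30.8% higher and 43.9% lower. Zinc finger genes named ZNF were the largest family, 137 higher and 130 lower of 387 with a median of -0.00, from ZNF19 at -3.84 to ZNF678 at 2.02. Mediator subunits were higher for 11 and lower for 12 of 29 (MED25 -2.12, MED18 1.39), histone lysine methyltransferases and demethylases for 18 and 12 of 43 (SETD7 1.42), and ubiquitin-specific proteases for 18 and 8 of 41 (USP14 1.38, not called without a term for the replicate pair, adjusted p = 0.069). RAB GTPases were higher for 19 and lower for 15 of 45, from RAB13 at -1.87 to RAB2B at 1.25. Cholesterol and fatty acid synthesis genes were higher for 12 and lower for 10 of 28. ACACA, which makes malonyl-CoA, was their highest at 1.81, with 50.7, 43.8 and 131 TPM against 2.21, 2.18 and 4.11, and the sterol enzyme NSDHL was their lowest at -1.31. Glycolytic enzymes were lower for 9 and higher for 1 of 17, with a median of -0.19, which was -0.33 without replicate 2. GAPDH was the lowest of them at -1.46 ± 0.09, with 962, 985 and 1898 TPM in the IP and 479, 450 and 846 in total RNA, and hexokinase HK2 the 1 that was higher, at 0.81. Immediate early genes were lower for 13 and higher for 4 of 19, with a median of -0.60. The mRNA-destabilizing protein ZFP36 was lowest at -1.74, and the antiproliferative BTG2 highest at 0.70, not called without a term for the replicate pair (adjusted p = 0.067).

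Recovery with UPF1-1 was then set beside recovery with UPF1-2, which has its own total RNA and shares no library with it. The ratios correlated across the 11969 genes at r = 0.94, as a description. The difference between the isoforms was tested as an interaction in the same limma fit. With UPF1-1, 530 genes (4.43%) were recovered more and 750 (6.27%) less than with UPF1-2. Of these 1280 genes, 866 had ratios of the same sign with both isoforms, and 38 differed by at least 1 on the log2 scale. With library upper quartiles set equal in place of medians the balance turned, to 846 more and 459 less, and without centring limma called 0 and 0 (1878 genes at an unadjusted p under 0.05). Without a term for the replicate pair limma called 0 of them, with 846 genes at an unadjusted p under 0.05. Without replicate 1 it called 0 (1599 unadjusted), without replicate 2 also 0 (2513 unadjusted), and without replicate 3 it called 523 more and 581 less. The calls thus depended on the pairing. Which replicates they rest on cannot be told, since each run with a replicate left out has fewer libraries to estimate the spread.

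LINC00657, the long noncoding RNA NORAD that binds Pumilio proteins, had the largest difference in favour of UPF1-1 among genes of at least 5 TPM. It had 145, 126 and 364 TPM in UPF1-1 IP against 11, 11.7 and 16.8 in UPF1-1 total RNA, a log2 ratio of 1.25 with UPF1-1 and 0.01 with UPF1-2. The difference was 1.25, with a limma adjusted p of 0.015. MDM2, the ubiquitin ligase of p53, was at 1.31 with UPF1-1 and 0.39 with UPF1-2, a difference of 0.91. TMEM14C, C8orf88 and ZFAS1 differed by 1.01, 0.95 and 0.97, with ratios of 0.31, 0.06 and -0.01 with UPF1-1 and below 0 with UPF1-2. The zinc finger gene ZNF678 differed by 1.14. Among the largest differences the other way were those of WDR75, a factor of ribosomal RNA transcription and processing (0.53 with UPF1-1 and 1.77 with UPF1-2), the nucleolar genes WDR18 (-1.07 and -0.08) and TCOF1 (-1.34 and -0.35), and the spliceosomal helicase SNRNP200 (0.53 and 1.51). TMEM14C, WDR75 and SNRNP200 were not called in the UPF1-1 comparison itself without a term for the replicate pair (adjusted p = 0.44, 0.31 and 0.21). Without replicate 1 or 2, TMEM14C and WDR75 were not called in it either (lowest limma adjusted p = 0.105, for WDR75 without replicate 2), and without replicate 3 the ratios of WDR75 and TMEM14C were 0.83 and 0.47.

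By list, 7 of 8 chaperonin subunits, 14 of 34 proteasome subunits, 13 of 20 aminoacyl-tRNA synthetases, 17 of 47 DEAD and DEAH box helicases and 11 of 17 glycolytic enzymes were recovered less with UPF1-1 than with UPF1-2, beside 6.27% of all tested genes, and 0 of each were recovered more. Synthetases had a median of -0.29 with UPF1-1 and 0.21 with UPF1-2, and glycolytic enzymes -0.19 and 0.24. More recovered with UPF1-1 were 17 of 142 TMEM genes, 6 of 21 ER chaperones and 5 of 24 translocon genes, beside 4.43% of all. For NMD targets the medians were 0.29 and 0.28, with 1 recovered more and 3 less. UPF1 mRNA itself was at 2.06 and 2.39, a difference that was not called (limma adjusted p = 0.15).

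**Figure D5:**
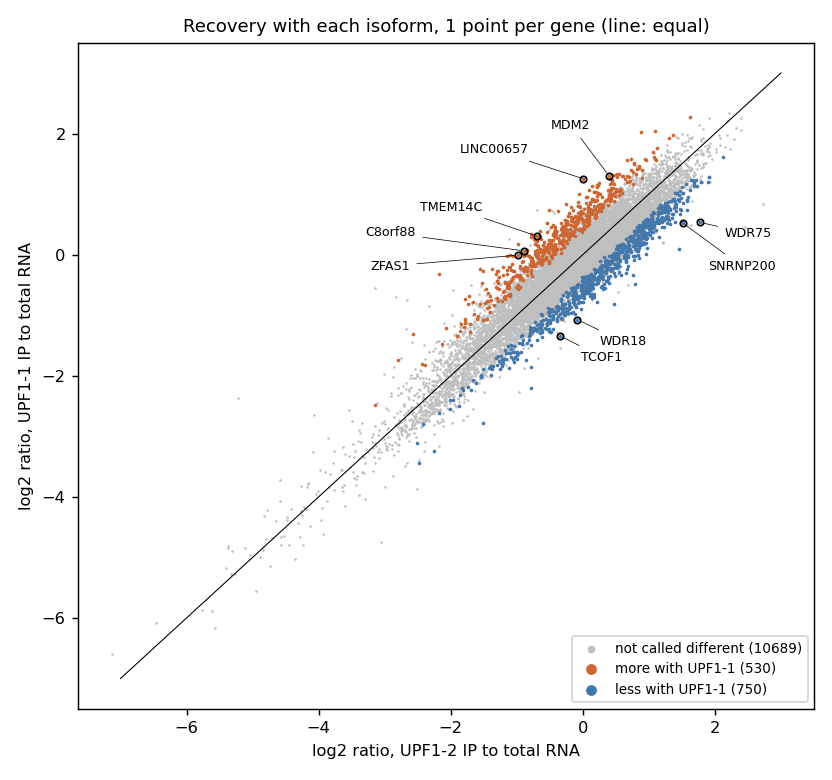
Log2 ratio of IP to total RNA with UPF1-1 (vertical) against that with UPF1-2 (horizontal), 1 point per tested gene with equal library medians; orange marks 530 genes recovered more with UPF1-1, blue 750 recovered less, and circles the named genes with the largest differences. The points lie along the line of equal ratios, and most called differences are below 1.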

How the data were processed

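Per the file headers, the authors deposited TPM for each library, the ratio of IP to total TPM and sleuth's mean estimated count of each gene on the natural log scale. Cutadapt, kallisto, sleuth and hg19 are named in the submitters' processing notes, with versions and settings not given in the sources used here. The deposited ratio equalled the recomputed ratio in 100% of entries within 1e-06 in each replicate. TPM keeps no depth, so the depth is unknown, and the labels do not say whether replicates were separate cultures, so p-values cover the spread seen among these libraries and no more.

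Values were log2(TPM + 0.5). A gene needed 1 TPM or more in 3 or more of 12 libraries. Library medians were set equal, and the limma-trend model (limma 3.58.1, R 4.3.3) had a term for each replicate pair (the IP and total RNA library of one isoform with the same number, which no label ties to one culture). Two-sided p-values were adjusted over 11969 genes. UPF1-2 libraries share the estimate of spread, with 4 residual degrees of freedom. After group means were removed, the same numbers correlated at 0.69, 0.62 and 0.79 across genes, and numbers 1 and 2 crossed at 0.65 and 0.65, so the values set replicate 3 apart more than they pair 1 with 2. In 10 simulated data sets on 11969 genes the fit recovered a median of 57.1% of 1.5-fold, 86.0% of 2-fold and 98.6% of 4-fold changes, with at most 6.37% false calls. Each set changed 200 genes, left all others without an IP effect, and had no centring step. In the data most genes were called and centring moved all ratios, so these rates do not describe the calls above.

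Named genes were UPF1, every NMD target, the 10 highest IP levels, and the highest and lowest member of each list. The 12 highest and 12 lowest called ratios at 5 TPM or more in both groups, with all 3 replicates of one sign, were named too. So were the 5 largest isoform differences each way among genes of at least 5 TPM. Some genes that the rule took in are not reported here. The members and lists were chosen with earlier results of these data known. Symbols are the table's own; 11657 tested genes matched a current symbol and 11210 a biotype.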

Additional observations from a re-analysis of the deposited data

Results flagged for a closer look

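Among the named genes, 27 were recovered differently with UPF1-1 than with UPF1-2 by the interaction test of limma, at an adjusted p under 0.05. The values are log2 ratios with UPF1-1 minus those with UPF1-2, after library medians were set equal. Higher with UPF1-1, the differences were 1.25 for LINC00657, 1.14 for ZNF678, 1.01 for TMEM14C, 0.97 for ZFAS1, 0.95 for C8orf88, 0.91 for MDM2, 0.58 for DNAJC3 and 0.53 for DCP2. Lower with UPF1-1, the larger differences were -1.23 for WDR75, -0.99 for WDR18, -0.99 for TCOF1, -0.98 for SNRNP200, -0.86 for ASNS, -0.70 for HNRNPL, -0.68 for HUWE1 and -0.68 for ENO1. The others were -0.64 for DHX9, -0.62 for GAPDH, -0.61 for CCT7, -0.61 for FARSA, -0.61 for GNB2L1, -0.54 for DYNC1H1, -0.50 for NSDHL, -0.47 for TUBG1, -0.46 for CARS, -0.43 for EEF1B2 and -0.39 for ACTG1. The interaction test called 0 genes of the whole table without a term for the replicate pair, without centring, and without replicate 1 or 2.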

How the results depend on the processing

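The 3691 higher and 5251 lower genes of the UPF1-1 comparison stayed within 1.5 times under most of the 11 other settings. Exceptions were 2368 higher genes with no replicate block; 3296 lower and 1357 at least 2-fold lower genes with a minimum of 5 TPM, which tests fewer genes; and, with library medians not set equal, 11464 higher, 150 lower, 10796 at least 2-fold higher and 74 at least 2-fold lower genes. Leaving out each replicate gave 2934 to 3781 higher and 4418 to 5095 lower genes. All 23 of the 40 list medians that were below 0 turned above 0 without centring, which moved the median gene by the 2.40 given above. The isoform difference was less stable. Limma called 0 more and 0 less with no replicate block (846 genes at an unadjusted p under 0.05) and 0 and 0 without centring (1878). It called 846 more and 459 less with upper quartiles set equal, 315 and 495 with a pseudocount of 1, and 0 to 523 more and 0 to 581 less with a replicate left out. The causes were not tested. Of the 133 named genes that were called, 18 lost the call with no replicate block. Sign changes were seen among 11 of the named genes, all with ratios near 0 and not called. Relative to the median gene without centring ENO1 was at 0.16, LSM4 at 0.12, CCT6A at 0.00075, ZFAS1 at 0.15 and SRSF2 at 0.052. With a pseudocount of 1 ENO1 was at 0.21, LSM4 at 0.17, CCT6A at 0.041, ITGAV at -0.15, ZFAS1 at 0.18 and SRSF2 at 0.095. With a pseudocount of 0.1 HFM1 was at -0.093, C8orf88 at -0.078, ASNS at -0.098, SRSF3 at -0.039 and ATF4 at -0.12. Without a filter ENO1 was at 0.0047. With a replicate left out ENO1 ranged from -0.094 to 0.12, HFM1 from -0.090 to 0.24, LSM4 from -0.21 to 0.18, ZFAS1 from -0.21 to 0.26, C8orf88 from -0.032 to 0.12 and ATF4 from -0.055 to 0.24. ZFAS1 was called higher without replicate 3, with a limma adjusted p of 0.036. Depth is unknown from TPM, so a value listed at 0 carries no limit.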
